A study of Mus musculus with 4 samples.

Results

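The genes of the mechanotransduction channel complex of hair cells were examined in cochlear RNA. The 8 genes are *Tmc1*, *Tmc2*, *Tmie*, *Lhfpl5*, *Pcdh15*, *Cdh23*, *Tomt* and *Cib2*, and all non-control probes that carry one of these names in the array files were taken, which gave 8 of the 30028 names on the array and 16 of 39429 probes. The samples were cochleae of mice on the B6J background at 5 weeks of age, hybridised to 1 Agilent array of the Cy3 channel for each of 4 groups. The groups were wild-type mice without treatment, wild-type mice given 50 μg/kg of diphtheria toxin (DT) 7 days before dissection (DT-treated), and *Prestin*-*hDTR* mice that were either untreated or given the same DT treatment. The labels call the *Prestin*-*hDTR* groups OHC-TRECK, and each group is a pool of 4 females and 4 males. *Prestin*-*hDTR* mice carry a human DT receptor under the promoter of *Slc26a5*, the gene of prestin, which drives it in outer hair cells (OHCs). Mouse cells respond poorly to DT without this receptor. The transgenic mice are of 1 line, and the pools do not resolve single animals.

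Hair cells turn sound-evoked deflection of their stereocilia into current through channels at the lower end of the tip link, a fine filament between neighbouring stereocilia. The upper part of the tip link is cadherin 23, encoded by *Cdh23*, and the lower part is protocadherin 15, encoded by *Pcdh15*. TMC1 and TMC2 form the pore, TMIE and LHFPL5 are accessory subunits, CIB2 binds the TMC proteins, and TOMT is needed to bring TMC1 to the hair bundle. In the cochlea, *Tmc2* is expressed mainly during early development, and *Tmc1* is the form of mature hair cells.

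The probes differ in how far they can report on each gene, so the last 30 of the 60 bases of those on which the results turn are shown 5′ to 3′, as the array files give them. The first set holds the probes of *Tmc1*, *Tomt* and *Lhfpl5*. The capitals mark AATAAA, the hexamer of the usual polyadenylation signal.
*Tmc1*, chr19:20857948-20858007, minus strand: aatgcagcaAATAAAgatcgtgttgatttc
*Tmc1*, chr19:20863879-20863938, minus strand: gatttcttttccatgggagtggataaaaaa
*Tomt*, chr7:109048342-109048401, minus strand: catacagacaaaacacttttaagcataaca
*Lhfpl5*, chr17:28720438-28720497, plus strand: ttctttatcgtcttttagcttccaaaatga
*Lhfpl5*, chr17:28717109-28717168, plus strand: ccttccctggggctgtgggtggagaagtgg
The coordinates are those of the array files, on mm9. The pair of *Tmc1* probes lies 5871 bases apart and the pair of *Lhfpl5* probes 3269 bases apart. In each pair, the probe nearer the 3′ end of the gene, listed first, was the brighter one.

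*Pcdh15* has 7 probes, and a second set shows some of these beside the only *Cdh23* probe. The capitals mark AATAAA or a stop codon at the end of a reading frame that the probe holds without an earlier stop.
*Pcdh15*, chr10:73969284-73969343, plus strand: acaagagcagcaagtgttcctatccacTGA
*Pcdh15*, chr10:73970286-73970345, plus strand: atcatattAATAAAagcaagaatctactcc
*Pcdh15*, chr10:74106904-74106963, plus strand: aactccgaaggttacaacacagcccttTAG
*Pcdh15*, chr10:74112334-74112393, plus strand: actgttcttccttaaatgttacgttaaggt
*Cdh23*, chr10:59768489-59768716, minus strand: cacaagagaaagctaaaggccattgtggct
The *Cdh23* probe of 60 bases covers 228 bases of mm9, so it spans an intron. Whether the other probes lie in exons, introns or untranslated regions was not read from an annotation, because no annotation of mm9 was used here.

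By the flag of the scanner software, all 4 arrays read 7 of the 16 probes well above background, while 4 were so on 1 to 3 arrays and 5 on none. The 7 probes stand for 6 genes, *Tmc1*, *Tmie*, *Lhfpl5* (with 2 probes), *Pcdh15*, *Tomt* and *Cib2*. The only *Tmc2* probe was well above background on both untreated arrays and on neither DT-treated one. Fewer of all probes passed the flag on the DT-treated arrays, 62.5% in wild-type and 62.2% in *Prestin*-*hDTR* cochleae. On the untreated arrays, 67.0% and 70.6% did so. No array read the only *Cdh23* probe well above background, and the same held for the second *Tmc1* probe and 3 of the 7 *Pcdh15* probes. No member spot was saturated or marked as an outlier.

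Levels are given as log2 of the background-subtracted intensity after division by the 75th percentile of the array, so that 0 is the signal of that percentile. On each array, 62.2% to 70.6% of all probes passed that flag. Probes spotted more than once had a median SD of 0.061 to 0.071 between their spots, and this and the error given by the software (0.14 to 0.15 for *Tmc1*, 0.15 to 0.27 for *Tomt*) cover the spot only. With 1 array a group, none of the differences could be checked in a replicate, and p-values are not given. A probe was compared between 2 arrays when at least 1 of them read it well above background, and a change of 2-fold or more, a log2 ratio of at least 1 in size, is called here. Where 1 array did not measure the probe, the lowest signal of well-measured probes on that array, or the probe's own signal if higher, took its place and the fold is a lower bound. Since whole cochleae were measured, fewer cells of a type and less RNA per cell cannot be told apart in any of the levels that follow.

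*Tmc1*, the pore subunit of mature cochlear hair cells, was lower in DT-treated *Prestin*-*hDTR* cochleae than in each of the other groups. Its leading probe read -0.97 in untreated and -0.74 in DT-treated wild-type cochleae, and -0.64 in untreated and -2.15 in DT-treated *Prestin*-*hDTR* cochleae. The 3 other arrays lay within 0.33 of each other, and the DT-treated *Prestin*-*hDTR* array lay 1.17 below the lowest of them. The level was lower by 2.85-fold against untreated *Prestin*-*hDTR*, by 2.65-fold against DT-treated wild-type and by 2.26-fold against untreated wild-type cochleae. Among the 24229 probes measured on both *Prestin*-*hDTR* arrays, its ratio was the 54th lowest.

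*Tomt*, whose product TMC1 needs to reach the bundle, showed almost the same pattern. Its probe read -3.93 in untreated and -3.57 in DT-treated wild-type cochleae, and -3.52 in untreated and -5.07 in DT-treated *Prestin*-*hDTR* cochleae. The 3 other arrays did not overlap with the DT-treated *Prestin*-*hDTR* array, which lay 1.14 below the lowest of them, while these 3 spanned 0.42. The level was lower by 2.94-fold against untreated *Prestin*-*hDTR*, by 2.83-fold against DT-treated wild-type and by 2.2-fold against untreated wild-type cochleae. Its probe was dim, with an intensity of 92.8 in DT-treated *Prestin*-*hDTR* cochleae and 178.4 to 266.4 in the others. With another background correction (normexp), *Tomt* stayed lower but no longer reached 2-fold against untreated wild-type cochleae.

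*Lhfpl5*, the subunit that couples protocadherin 15 to the channel, came just short of 2-fold. Its leading probe read 0.45 in untreated and 0.32 in DT-treated wild-type cochleae, and 0.45 in untreated and -0.54 in DT-treated *Prestin*-*hDTR* cochleae. The 3 other arrays spanned 0.14, and the DT-treated *Prestin*-*hDTR* array lay 0.86 below the lowest. The fold was 1.99 lower against each untreated group and 1.81 lower against DT-treated wild-type cochleae. With normexp, it passed 2-fold against untreated wild-type cochleae. The second *Lhfpl5* probe did not show this difference. It read -4.53 in untreated and -4.71 in DT-treated wild-type cochleae, and -4.60 in untreated and -4.64 in DT-treated *Prestin*-*hDTR* cochleae, the last inside the range of the others. Its intensity was 118.2 to 125.3, near the lower end of what was well above background.

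*Cib2* and *Tmie* were lower by smaller amounts. *Cib2* read 4.31 in untreated and 4.17 in DT-treated wild-type cochleae, and 4.39 in untreated and 3.83 in DT-treated *Prestin*-*hDTR* cochleae. Its level there was 1.26-fold to 1.47-fold lower than in the other groups, and the gap of 0.33 to the lowest of these was wider than their span of 0.22. *Tmie* read -1.49, -1.36 and -1.45 in the same order of the 3 other groups and -1.77 in DT-treated *Prestin*-*hDTR* cochleae. It was 1.21-fold to 1.33-fold lower, a gap of 0.28 beside a span of 0.13.

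*Pcdh15*, the lower part of the tip link, was level across the arrays at its 1 well-measured probe, the most 3′ of the 7. This probe read -2.16 in untreated and -2.13 in DT-treated wild-type cochleae, and -2.13 in untreated and -2.21 in DT-treated *Prestin*-*hDTR* cochleae. All 4 arrays lay within 0.08 of each other, inside the error of 0.15 that the software gave for this spot. Of the 6 other *Pcdh15* probes, 3 were well above background on 1 or both untreated arrays. The probe at chr10:73970286-73970345 read -5.41 in the untreated wild-type and -5.28 in the untreated *Prestin*-*hDTR* group, and the one at chr10:74105072-74105131 read -5.51 and -5.45. The probe at chr10:74089451-74089510 was well above background in untreated *Prestin*-*hDTR* cochleae only, at -5.73. None of these gave a fold against DT-treated *Prestin*-*hDTR* cochleae, where their signals were not well above background. Their signals there were -5.23, -5.85 and -5.79, in the order given. The lowest signal of well-measured probes was -5.44 on that array, beside -5.93 on the untreated wild-type and -6.39 on the untreated *Prestin*-*hDTR* array. The 3 probes at chr10:72946804-72946863, chr10:73969284-73969343 and chr10:74106904-74106963 read between -8.32 and -6.57 on the 4 arrays, with no array well above background.

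*Tmc2* and *Cdh23* could not be ranked between groups. *Tmc2* read -5.31 in the untreated wild-type and -5.89 in the untreated *Prestin*-*hDTR* group, a 1.5-fold difference, and its signals of -6.09 in the DT-treated wild-type and -5.84 in the DT-treated *Prestin*-*hDTR* group were not well above background. Against untreated wild-type cochleae, the bound for DT-treated *Prestin*-*hDTR* cochleae was 1.1-fold lower, -0.13 in log2. The error that the software gave for the *Tmc2* spot was 0.3 to 0.64 in log2, larger than this bound. The log2 ratio of the untreated groups, -0.58, was in size between the lowest and the highest of these errors. These are the extremes over all arrays and may not be those of the untreated ones. *Cdh23* read between -7.37 and -6.20, without an array well above background, and the second *Tmc1* probe read between -7.11 and -6.33. Whether *Cdh23* differed between the groups was not detectable with this probe.

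**Figure D1:**
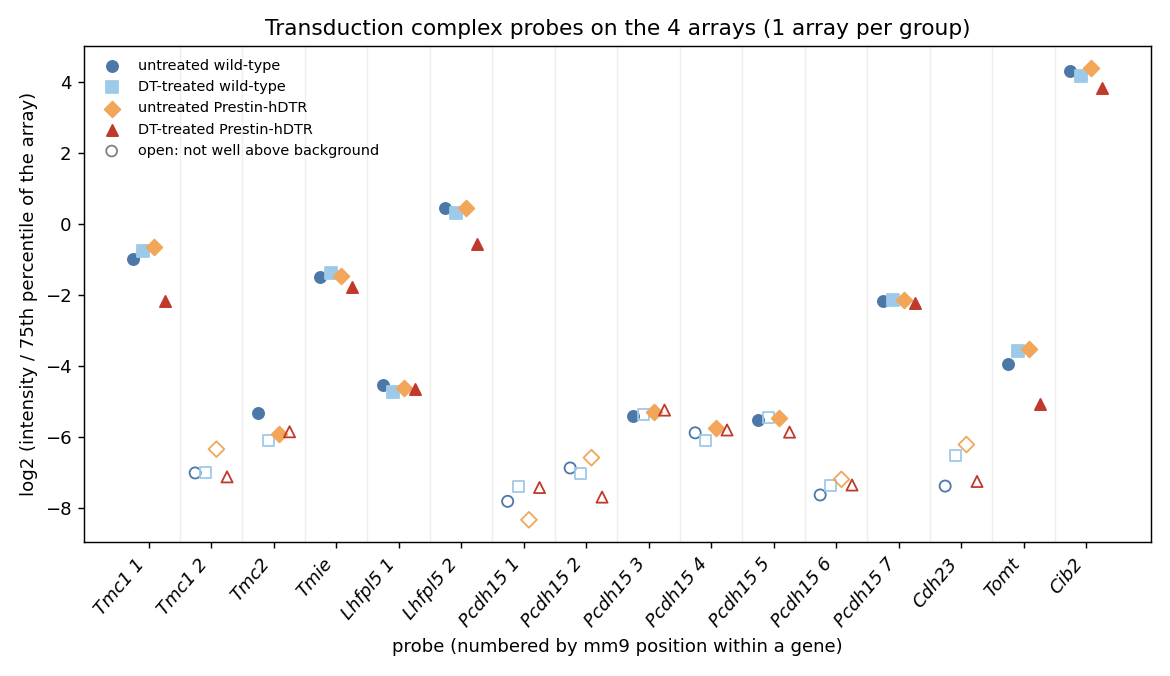
Level of each of the 16 probes on the 4 arrays, as log2 of intensity over the 75th percentile of the array, with 1 point per array and open points where the probe was not well above background. The DT-treated *Prestin*-*hDTR* points of the first *Tmc1* probe, *Tomt* and the second *Lhfpl5* probe (numbered by genome position) lie apart from the other 3, at -2.15, -5.07 and -0.54.

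Counted over all member probes, DT-treated against untreated *Prestin*-*hDTR* cochleae had 11 probes compared, of which 2 were called lower, *Tmc1* and *Tomt*, and 0 higher. Over all 28082 probes compared there, 1.35% were called lower and 2.49% higher. Against DT-treated wild-type cochleae, the same 2 of 7 member probes were called lower, with 1.83% of all probes called lower and 1.41% higher. Against untreated wild-type cochleae, these 2 of 10 were called lower, with 1.95% of all probes lower and 1.96% higher. The comparisons share the DT-treated *Prestin*-*hDTR* array, so their calls are not separate evidence.

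Of the 7 member probes compared against all 3 other arrays, these 2 were lower by 2-fold or more in each comparison and 0 were higher, while 0.259% of all 25061 probes were lower and 1.08% higher. Of the 7 probes well above background on all 4 arrays, 6 had their lowest level in DT-treated *Prestin*-*hDTR* cochleae, as did 35.2% of all such probes. In these 6, the gap to the lowest of the other arrays was also wider than the span of those arrays, which held for 14.8% of all such probes. *Pcdh15*, counted among the 6, had a gap of 0.05 and a span of 0.03, both inside the error of 0.15 of its spot. The exception among the 7 probes was the second *Lhfpl5* probe.

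The transgene and DT each had a comparison of their own. In untreated *Prestin*-*hDTR* against untreated wild-type cochleae, 0 of 11 member probes were called, with 3.33% of all probes called in either direction. The ratios of *Tmc1* and *Tomt* were 0.33 and 0.42 in log2, higher in untreated *Prestin*-*hDTR* cochleae. In DT-treated against untreated wild-type cochleae, 0 of 10 were called, with 2.55% of all probes called, and *Tmc1* and *Tomt* were higher by 0.23 and 0.37 in log2. Both genes were thus lowest in untreated wild-type cochleae among the 3 other arrays. Of the 7 probes well measured on every array, 4 differed in opposite directions after DT in the 2 genotypes, as did 44.5% of all such probes.

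**Figure D2:**
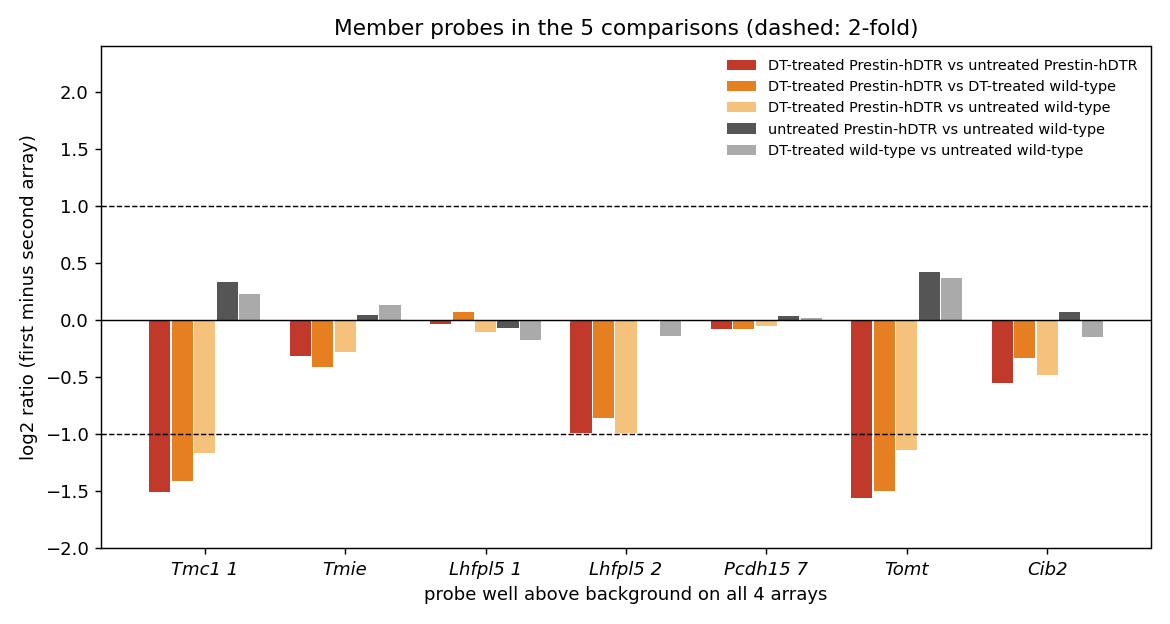
Log2 ratio of the 7 member probes that were well above background on all 4 arrays, in each of the 5 comparisons (1 array against 1 array, with no error bar because no group was replicated), with dashed lines at 2-fold. *Tmc1* and *Tomt* pass the lower line in all 3 comparisons of DT-treated *Prestin*-*hDTR* cochleae, at -1.51, -1.41 and -1.17 and at -1.56, -1.50 and -1.14, and no probe passes a line in the 2 comparisons without that array.

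Set against the mean of the other 3 arrays, the log2 ratio in DT-treated *Prestin*-*hDTR* cochleae was -1.40 for *Tomt*, -1.36 for *Tmc1*, -0.95 for *Lhfpl5*, -0.46 for *Cib2*, -0.33 for *Tmie* and -0.07 for *Pcdh15*. The median was -0.70 over these 6 genes and -0.46 over the 7 genes with *Tmc2* at its bound. Over all 21918 genes measured, the median was 0.007 and the middle ran from -0.48 at the 5th to 0.50 at the 95th percentile. Over the 18232 genes well above background on all 4 arrays, as these 6 were, the 5th percentile was -0.45. *Tomt*, *Tmc1* and *Lhfpl5* lay below both limits, *Cib2* between them, and *Tmie* and *Pcdh15* above both.

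A list of partner genes, not all of them at the transduction site, was uneven as well. Of 14 partners measured, 2 were lower by 2-fold or more against all 3 other arrays and 0 higher, while 0.291% of all genes were lower and 1.22% higher. *Myo15*, a myosin that carries cargo to stereocilia tips, was lower by 5.51-fold against untreated *Prestin*-*hDTR* and by 3.7-fold against untreated wild-type cochleae. *Grxcr2*, a protein of the stereocilia base, was lower by 2.73-fold and 2.47-fold. *Gipc3* had the highest ratio of the list, 0.64 in log2, a value that rests on bounds because 2 of the 4 arrays did not measure it. The median of the 14 was -0.10. A second *Loxhd1* probe, well above background on 3 arrays, had a log2 ratio of -1.5 that rests on a bound. The *Loxhd1* probe used had -0.04.

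In a list called other bundle links here, not all of them links, 6 of 7 genes were measured. All 6 were lower than the mean of the other arrays, with a median of -0.85, as were 48.6% of all genes measured. The median was -0.53 with normexp, and *Pdzd7* and *Ptprq* entered at bounds because they were dim in DT-treated *Prestin*-*hDTR* cochleae. *Strc*, which encodes stereocilin of the horizontal top connectors and the tectorial membrane attachment of OHCs, was 7.43-fold to 8.57-fold lower. *Clrn2* was 2.06-fold to 2.12-fold lower. *Clrn1* had the smallest difference of the list, -0.33 in log2.

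Of a list of 16 genes, most of them paralogs of the members, 13 were measured, with a median of 0.0, and 0 were called against all 3 arrays. *Cib3*, a relative of *Cib2*, had the lowest ratio of the list, -2.31 in log2, and read -3.02 in untreated and -0.99 in DT-treated wild-type cochleae, and -0.85 in untreated and -3.93 in DT-treated *Prestin*-*hDTR* cochleae. The last level was lower by 8.46-fold against untreated *Prestin*-*hDTR* and by 7.68-fold against DT-treated wild-type cochleae, but by 1.88-fold against untreated wild-type cochleae, where it was itself low. *Lhfpl1* was the highest, with a log2 ratio of 1.0 and dim signals between -5.45 and -4.37. Among 10 other mechanosensitive channels measured, the median was 0.14, from -0.37 for *Tmem63c* to 0.44 for *Piezo2*.

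Markers of hair cells were lower to different extents. All 7 OHC markers were lower than the mean of the other arrays, with a median of -2.33, and 4 of them (*Strc*, *Chrna10*, *Chrna9* and *Ocm*) were lower by 2-fold or more against all 3 arrays. Of all genes measured, 48.6% were lower than that mean. Of all genes compared against all 3 arrays, 0.291% were lower by 2-fold or more in each. A second *Chrna9* probe, also well above background on all 4 arrays, had a log2 ratio of -0.21 in place of -2.56, and with it the median of the list was -0.68. The summed normalized signal of the 7 was 5.73 in DT-treated *Prestin*-*hDTR* and 23.0 to 25.0 in the other groups, and *Ikzf2* differed least, by -0.06. For *Slc26a5* itself, the DT-treated *Prestin*-*hDTR* signal did not pass the flag, and it was at least 1.31-fold, 1.47-fold and 1.96-fold lower than in untreated *Prestin*-*hDTR*, untreated wild-type and DT-treated wild-type cochleae. For the 4 inner hair cell markers, the median was -0.38, from -0.59 for *Otof* to 0.52 for *Tbx2*, and the summed signal was 6.61 against 6.68 to 7.10. Without *Tbx2*, the only one that was higher, the sum was 3.36 against 4.48 to 4.75. Of 9 markers of both hair cell types, with a median of -0.52, *Pou4f3*, *Gfi1* and *Lhx3* were lower by 2-fold or more against all 3 arrays, and *Myo6* was the highest at 0.09. The *Barhl1* probe of this list had a ratio of -0.02, but a second well-measured *Barhl1* probe had -1.90, with which the median was -1.16. *Strc* is also in the list of bundle links, and *Myo7a*, *Espn* and *Ptprq* are each in a list of the hair bundle as well.

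Markers of other cells differed as well. All 8 macrophage markers were higher in DT-treated *Prestin*-*hDTR* cochleae, with a median of 0.84 and a summed signal of 22.7 against 12.9 to 14.8, and 3 of them (*Cd68*, *Adgre1* and *C1qb*) were higher by 2-fold or more against all 3 arrays. The lowest of the 8 was *Mrc1*, at 0.44. Of all genes compared against all 3 arrays, 1.22% were higher by 2-fold or more in each. Neutrophil markers differed widely among the 4 arrays, with a summed signal of 37.8 in untreated and 59.0 in DT-treated wild-type cochleae, and of 13.6 in untreated and 22.4 in DT-treated *Prestin*-*hDTR* cochleae, and ran from -0.93 for *Camp* to 0.23 for *Retnlg*. The 9 supporting cell markers had a median of 0.05, from -0.37 for *Prox1* to 0.26 for *Gjb2*, and a summed signal of 221.0 against 187.0 to 208.0. The part of these cells in the member levels was not tested.

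The remaining lists had medians between -0.21 and 0.15. The 8 cochlear tissue genes, all measured, had a median of -0.09 and ran up to 0.13 for *Kcnq1*. *Tecta*, at the low end, was well above background on 2 arrays only, those of the DT-treated wild-type group, at -4.25, and the untreated *Prestin*-*hDTR* group, at -4.79, and so has no exact ratio. The 5 spiral ganglion neuron markers had a median of -0.21, from -0.36 for *Snap25* to 0.50 for *Prph*. The 2 vestibular genes measured were *Otop1* at 0.06 and *Oc90* at 0.24. The 4 skeletal muscle markers measured had *Acta1* lowest at -0.33, and *Tnnt3*, at the high end, was well above background on 1 array only. The 7 erythroid markers stood apart on the DT-treated wild-type array, with a summed signal of 4.34 against 1.65 to 2.63. Their median was 0.64 without that array and -0.37 without the untreated *Prestin*-*hDTR* array. *Slc4a1* was the highest of them at 0.57, and *Klf1*, at the low end, rested on a bound because it was dim in DT-treated *Prestin*-*hDTR* cochleae.

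**Figure D3:**
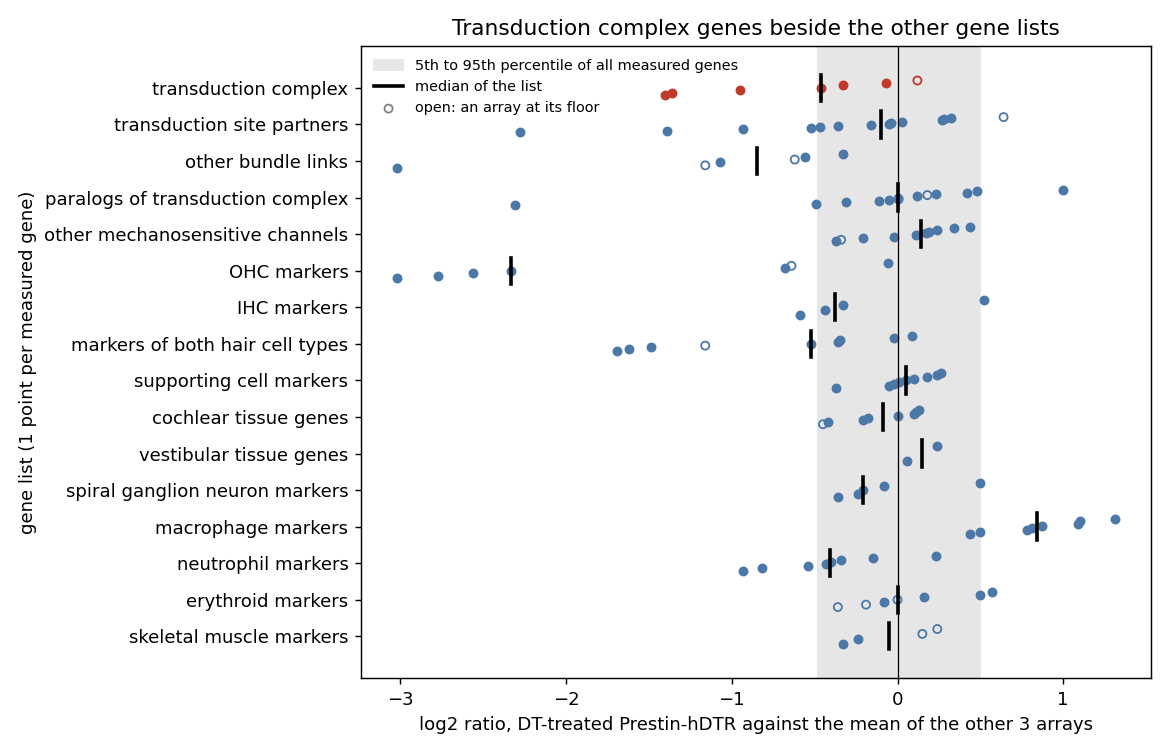
Log2 ratio in DT-treated *Prestin*-*hDTR* cochleae against the mean of the other 3 arrays, 1 point per measured gene in each list, with the list's median as a bar and the 5th to 95th percentile of all genes shaded. Open points rest on a bound on at least 1 array, among them *Tmc2*, and the 6 filled points of the transduction complex run from -1.40 to -0.07.

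The level of *Tmc1* across the 4 arrays was most like that of *Pjvk*, which encodes pejvakin, a protein needed for hearing. With each gene centred on its mean, the distance to *Pjvk* was 0.08 over the 4 arrays, followed by *Tomt* at 0.10, *Slc8a2* at 0.13, *Grxcr2* at 0.14 and *Tctex1d1* at 0.14. Distances were taken over 15270 named genes with a probe well above background on all 4 arrays. For *Tomt*, the 5 nearest genes included *Pjvk* at 0.08, *Mei1* at 0.10, *Tmc1* at 0.10 and *Vwa3a* at 0.18. These genes were chosen for their likeness, so their lower level in DT-treated *Prestin*-*hDTR* cochleae follows from the choice. A profile over 4 arrays has few points, and the other members spanned less than 1 on the log2 scale.

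**Figure D4:**
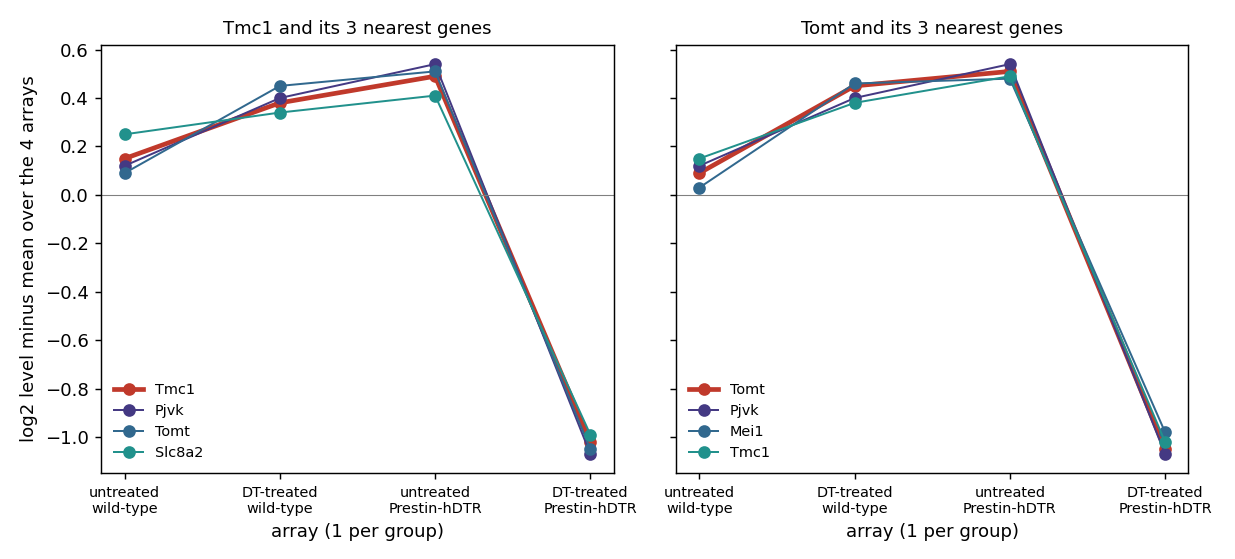
Log2 level of *Tmc1* and *Tomt* (thick red lines) and of the 3 genes nearest to each, after subtracting the mean of the 4 arrays, with 1 array per group along the x axis. *Tmc1* reads 0.15, 0.38, 0.49 and -1.02 and *Tomt* 0.09, 0.45, 0.51 and -1.05, and the genes shown follow within a distance of 0.13.

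Because *Tmc1* and *Tomt* had almost the same pattern, the 250 bases before their RefSeq starts (GRCm38.p6) are shown 5′ to 3′ along the gene. Of the 2 starts of *Tomt* in the table, the one farther upstream is given. Capitals mark the letters CAGCTG (an E-box), AATTAAT and AAATCA, which resemble the core sites of hair cell factors of the bHLH, POU and GFI families, on either strand.
*Tmc1*, chr19:20954203-20954452, minus strand: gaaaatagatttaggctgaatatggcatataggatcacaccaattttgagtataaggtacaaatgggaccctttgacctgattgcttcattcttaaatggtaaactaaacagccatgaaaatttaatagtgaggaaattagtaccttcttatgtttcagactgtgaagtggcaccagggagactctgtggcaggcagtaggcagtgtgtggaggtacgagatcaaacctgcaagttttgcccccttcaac
*Tomt*, chr7:101906360-101906609, minus strand: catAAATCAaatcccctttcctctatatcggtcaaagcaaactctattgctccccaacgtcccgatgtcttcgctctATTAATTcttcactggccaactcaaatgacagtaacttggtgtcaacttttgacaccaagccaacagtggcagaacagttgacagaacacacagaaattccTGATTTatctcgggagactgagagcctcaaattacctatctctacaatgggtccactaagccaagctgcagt
The *Tmc1* window holds none of these letters. In all 32851 promoters of the table, windows of the same length held CAGCTG in 13.0%, AATTAAT in 2.46% and AAATCA in 12.4%. Among the 8 promoters of 7 member genes in the table, 3 held CAGCTG, those of *Tmie*, *Lhfpl5* and the *Tomt* start not shown. The 2 that held AATTAAT were the 2 starts of *Tomt*, and the same 2 held AAATCA, so both counts come from *Tomt* alone.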

How the data were processed

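For each array, the authors deposited the output of Agilent Feature Extraction 11.5.1.1, in which the intensity of a spot is linear, background-subtracted and not scaled between arrays. A second deposited table gives this intensity over an array-wide constant, within 0.045% of the 75th percentile over all non-control spots of the array, outliers and repeated spots included. Control spots and 149 to 228 outlier spots per array were left out, spots of a probe were averaged, a flag held when it held for more than 0.5 of the spots, and log2 was taken after division by the 75th percentile over these probes. For gene lists, each gene was represented by its brightest probe on average, among those that any array read well above background. No test was made, because each group has 1 array.

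The members and gene lists were chosen with earlier results of these data known. Named are all member probes, list genes past 2-fold against all 3 arrays, the extremes of each list, and the 5 genes nearest to members that span at least 1 in log2. *Slc26a5* was added after its values were seen, and some genes within the rule are not reported here. Alternatives changed the floor, filter, flag, background correction (normexp, offset 50, limma 3.58.1 in R 4.3.3), scaling, normalization or value table. The 2-fold calls and the list median were tried on simulated data in Python 3.11.15. Detection was the same on all simulated arrays, so the lower bounds were not tried.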

Additional observations from a re-analysis of the deposited data

Results flagged for a closer look

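Some members moved in opposite directions after DT in the 2 genotypes, and the difference was not tested, since each group has 1 array. Of the 7 member probes well above background on all 4 arrays, 4 did so, as did 44.5% of all 23688 such probes, so opposite directions alone are not particular to the members. *Tomt* was lower by 1.56 in log2 in DT-treated than in untreated *Prestin*-*hDTR* cochleae and higher by 0.37 in DT-treated than in untreated wild-type cochleae, a difference between the genotypes of -1.92. For *Tmc1* the difference was -1.74, for *Tmie* -0.45 and for *Pcdh15* -0.11, the last within the error of its spot. The wild-type part of the *Tmie* difference, 0.13 higher after DT, was smaller than the error of its spot, 0.14 to 0.15.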

How the results depend on the processing

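The count of member probes lower in DT-treated than in untreated *Prestin*-*hDTR* cochleae was 4 in place of 2 both without a filter on dim probes and with the software's weaker flag for a positive and significant signal, where *Cdh23* and a dim *Pcdh15* probe were added to *Tmc1* and *Tomt*. Under these same 2 settings, 1 probe (*Cdh23*) in place of 0 was higher in the untreated *Prestin*-*hDTR* than the untreated wild-type group. With normexp, 1 probe in place of 2 was lower against all 3 other arrays, *Tmc1*, and *Lhfpl5* passed 2-fold against untreated wild-type cochleae while *Tomt* did not, and the cause was not tested. The median ratio of the member genes was -0.70 in place of -0.46 when every probe had to be well above background on all 4 arrays, which drops *Tmc2*. The other 99 counts of member probes and medians of the member genes under alternatives were within 1.5 times the value given or within the spot SD of 0.071. Of the ratios of single probes and list medians, 168 moved by less than that SD under these settings and 36 by more, and 58 and 20 did so when an array was left out, with 0 called values reversed. The other probes of *Chrna9* and *Barhl1* were tried after seeing the data and moved the medians of their lists to -0.68 and -1.16. Across the alternatives, the ratio against the mean of the other arrays ran from -1.40 to -0.93 for *Tomt*, from -1.36 to -1.28 for *Tmc1* and from -0.95 to -0.93 for the leading *Lhfpl5* probe, and leaving out 1 of the other arrays gave -1.53 to -1.32, -1.46 to -1.29 and -0.99 to -0.92. The median of the member genes without 1 of the other arrays was -0.52 to -0.41. No paired analysis was possible because each group has 1 array. Signal over background limits what can be said of *Cdh23*, *Tmc2* and 6 of the 7 *Pcdh15* probes.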
